A study of Homo sapiens with 2 samples.

Results

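The strongest lactylation regions that both libraries shared were 549 loci of the human genome, drawn from 31534 overlapping pairs of regions on chromosomes 1 to 22 and X. A pair was kept when its regions overlapped by at least 1 bp and each had a fold enrichment of 9 or more. Of all pairs, 550 passed (1.74%), made of 550 regions in the library labelled lactate against 549 in that labelled untreated. The other 29487 shared loci served as the comparison. Fold enrichment is the authors' own value for each peak: tags piled up at the summit plus 1, over the local background plus 1. Peaks were called without a control, so the local background came from the same library, with the peak's own tags included. The loci were chosen by these fold enrichments in both lists, so their heights are a description and carry no test.

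The data came from CUT&Tag on CAL27, a cell line from a squamous cell carcinoma of the human tongue, with an antibody against lactylated lysine. An antibody bound to chromatin directs a protein A-Tn5 transposase, which cuts and tags the DNA beside it. There was 1 library from cells given 10 mM lactate for 24 hours, with 15120031 tags, and 1 from untreated cells, with 15696147 tags. With 1 library in each group there is no replicate to check a difference against, and no p-value is given. The exact 95% intervals (Clopper-Pearson) cover counting error only.

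The headers of the 2 peak lists conflict with the sample labels. In each list the run name, the input name and all peak names, 58929 of 58929 in the list for lactate and 49750 of 49750 in the list for untreated, carry the other sample's name. The groups are therefore called the library labelled lactate and the library labelled untreated, and an exchange of the lists would turn round each direction given.

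Lysine lactylation is an acyl mark derived from lactate and found on histones and other proteins, and on histones it has been described at promoters and enhancers of active genes. Tn5 also cuts open chromatin without help from an antibody, and active promoters are open. DNA that is present in many copies can gather more tags than single-copy DNA, and where an assembly holds fewer copies than the cell, tags from all copies fall on the few that are listed. The sites most exposed to this are telomeric and centromeric repeats, arrays of ribosomal RNA and small nuclear RNA (snRNA) genes, and nuclear copies of the mitochondrial genome.

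Promoters at 8 of the loci are printed here to show what the marked gene starts look like. They comprise the examples PHF14, PARK7 and ZNF484, then WARS2 and PCNA, and then the 3 highest loci whose overlapped promoter of a protein-coding gene held the cAMP response element (CRE). Each runs 5′ to 3′ on the gene's strand from 250 bases before to 50 after a listed start, from RefSeq on GRCh38.p14. Capitals mark exact matches, on either strand, to the motifs described with the promoter results: the GC box in 7 of them, the box bound by NF-Y (ATTGG or CCAAT) in WARS2 and PCNA, the NRF1 motif in PHF14 and the CRE in the last 3. PARK7 held none.
PHF14 (chr7:10973622-10973921, + strand): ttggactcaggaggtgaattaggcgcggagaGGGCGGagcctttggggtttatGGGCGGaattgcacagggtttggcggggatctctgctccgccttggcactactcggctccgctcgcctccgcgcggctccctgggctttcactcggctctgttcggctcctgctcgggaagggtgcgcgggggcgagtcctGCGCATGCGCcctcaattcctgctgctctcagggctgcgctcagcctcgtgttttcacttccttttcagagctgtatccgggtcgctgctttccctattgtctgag
PARK7 (chr1:7961461-7961760, + strand): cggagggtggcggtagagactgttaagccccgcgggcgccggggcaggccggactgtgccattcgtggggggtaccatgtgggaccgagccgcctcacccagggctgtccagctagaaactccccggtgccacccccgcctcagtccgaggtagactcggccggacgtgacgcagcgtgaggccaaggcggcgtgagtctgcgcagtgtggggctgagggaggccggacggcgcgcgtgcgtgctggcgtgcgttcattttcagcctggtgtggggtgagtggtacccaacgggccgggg
ZNF484 (chr9:92877989-92878288, - strand): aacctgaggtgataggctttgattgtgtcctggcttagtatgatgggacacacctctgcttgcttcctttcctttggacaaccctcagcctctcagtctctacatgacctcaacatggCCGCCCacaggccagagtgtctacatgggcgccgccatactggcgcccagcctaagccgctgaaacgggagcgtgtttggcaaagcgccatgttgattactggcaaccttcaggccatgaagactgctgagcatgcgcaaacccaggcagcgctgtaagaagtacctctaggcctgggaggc
WARS2 (chr1:119140623-119140922, - strand): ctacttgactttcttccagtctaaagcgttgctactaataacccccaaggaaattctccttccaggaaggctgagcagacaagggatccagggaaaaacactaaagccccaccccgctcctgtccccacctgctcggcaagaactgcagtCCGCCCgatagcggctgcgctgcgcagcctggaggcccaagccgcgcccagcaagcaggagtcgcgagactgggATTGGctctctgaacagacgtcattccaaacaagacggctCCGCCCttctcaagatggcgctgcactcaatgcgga
PCNA (chr20:5119909-5120208, - strand): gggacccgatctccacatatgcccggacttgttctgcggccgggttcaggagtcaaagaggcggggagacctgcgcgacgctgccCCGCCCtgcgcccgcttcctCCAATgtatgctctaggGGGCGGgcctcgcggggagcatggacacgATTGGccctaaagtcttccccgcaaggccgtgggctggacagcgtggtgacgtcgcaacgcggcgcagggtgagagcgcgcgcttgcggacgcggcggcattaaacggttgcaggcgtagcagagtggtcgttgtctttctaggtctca
POT1 (chr7:124929776-124930075, - strand): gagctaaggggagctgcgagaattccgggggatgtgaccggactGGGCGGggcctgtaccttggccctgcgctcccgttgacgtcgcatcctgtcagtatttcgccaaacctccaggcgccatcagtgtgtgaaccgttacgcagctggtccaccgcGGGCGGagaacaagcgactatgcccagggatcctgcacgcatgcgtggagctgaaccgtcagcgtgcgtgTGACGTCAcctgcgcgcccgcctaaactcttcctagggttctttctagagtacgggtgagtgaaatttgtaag
PARP2 (chr14:20343385-20343684, + strand): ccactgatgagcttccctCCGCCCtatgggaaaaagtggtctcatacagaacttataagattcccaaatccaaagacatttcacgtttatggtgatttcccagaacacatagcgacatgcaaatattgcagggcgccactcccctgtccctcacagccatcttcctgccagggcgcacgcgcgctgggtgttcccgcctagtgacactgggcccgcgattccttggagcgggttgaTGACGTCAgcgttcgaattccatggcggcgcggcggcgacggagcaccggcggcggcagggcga
STXBP3 (chr1:108746424-108746723, + strand): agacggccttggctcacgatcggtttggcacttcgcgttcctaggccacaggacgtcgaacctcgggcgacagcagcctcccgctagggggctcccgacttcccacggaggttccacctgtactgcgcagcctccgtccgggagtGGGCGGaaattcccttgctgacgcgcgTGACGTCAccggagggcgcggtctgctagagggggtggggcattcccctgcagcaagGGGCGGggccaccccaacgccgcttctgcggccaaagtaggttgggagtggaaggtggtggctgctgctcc

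PHF14, a PHD finger protein, held the highest locus at the start of a protein-coding gene. Its region spanned chr7:10973589-10973968 in the library labelled lactate and chr7:10973589-10973982 in the library labelled untreated. The pileup was 76 tags in lactate (fold 13.4) and 70 in untreated (fold 14.1). The summit lay 112 bases before the start in lactate and 106 bases before it in untreated, which puts them between the GC boxes and the NRF1 match printed above.

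At PARK7, the gene of the oxidative-stress protein DJ-1, the region in the library labelled lactate was longer, at 921 bp, than that in the library labelled untreated, at 448 bp. It held 51 tags at a fold of 10.4 in lactate and 56 tags at a fold of 14.3 in untreated. ZNF484, a KRAB zinc finger gene, had 55 tags at a fold of 14.4 in lactate and 40 tags at a fold of 11.3 in untreated. The log2 ratio of pileup per 1000000 tags, lactate over untreated, was -0.08 at PARK7 (interval -0.66 to 0.49) and 0.51 at ZNF484 (interval -0.10 to 1.14). Both intervals held 0, so neither difference was detectable at this depth.

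**Figure D1:**
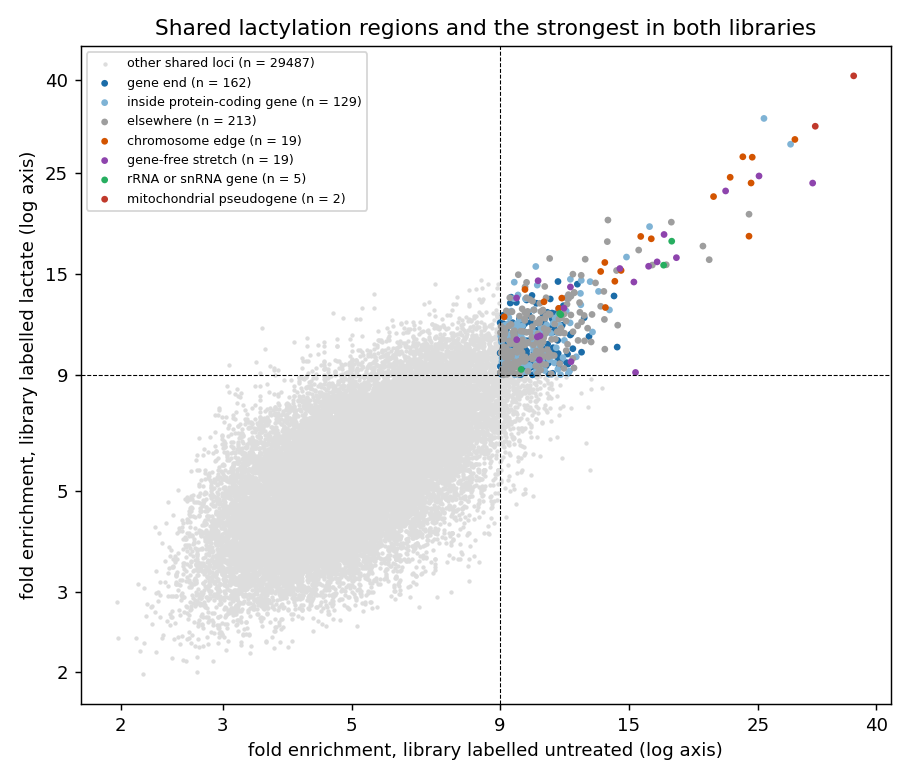
Fold enrichment for the library labelled lactate (vertical, log axis) and the one labelled untreated (horizontal, log axis) for all shared loci, with dashed lines at the minimum of 9 and the 549 strongest loci coloured by place. Loci at gene ends stay below 15 in both libraries, and the far corner holds mitochondrial pseudogenes, chromosome edges and gene-free stretches with a few loci inside genes.

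Where the loci lay was not used to choose them. Each was put in 1 class, by its region where the class is a mitochondrial pseudogene or an RNA gene and otherwise by the summit of the library labelled lactate. The classes, in this order, were within 1 kb of a mitochondrial pseudogene, within 100 kb of a chromosome edge, within 1 kb of an rRNA or snRNA gene, within 1 kb of an end of a protein-coding gene or of a listed start of any gene, in or within 1 Mb of the longest stretch without an annotated gene on its chromosome, inside a protein-coding gene, or elsewhere. The low edge is the first base of the chromosome and the high edge the last coordinate held by a gene or region, since chromosome lengths were not used. Gene ends held 162 of 549 loci (29.5%, interval 25.7 to 33.5), against 28.0% of the other shared loci. Of all members, 134 (24.4%) had an end of a protein-coding gene within 1 kb, against 22.8% of the others. Another 129 lay inside protein-coding genes (23.5%, against 33.7% of the others) and 213 elsewhere (38.8%, against 37.2%). The interval at gene ends held the share of the other loci, and that inside genes (20.01 to 27.3) lay below it. Outside any annotated gene lay 54.1% (interval 49.8 to 58.3), above the 41.0% of the others.

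The remaining 45 loci fell in classes that are rare in the peak lists. Chromosome edges held 19 (3.46%, interval 2.096 to 5.35), against 0.231% of the other shared loci. Gene-free stretches held 19 as well, against 0.695%. There were 5 at rRNA or snRNA genes (0.911%, against 0.176%). Mitochondrial pseudogenes held 2 (0.364%), against 2 of the 29487 other shared loci (0.00678%). The intervals for edges, gene-free stretches and RNA genes did not overlap those of the other shared loci.

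The make-up changed with height within the set. Of the 319 loci whose lower fold lay from 9 to 10, 35.4% were at a gene end and 2.51% were in the 4 rare classes. From 12 to 16, 7.69% of 39 loci were at a gene end and 28.2% were in the rare classes. At 16 or more, 0 of 23 loci were at a gene end, which allows a share of up to 13.0% (3 counts; the exact upper limit is 14.8%), and 16 of 23 were in the rare classes (69.6%, interval 47.1 to 86.8). Below the minimum the share at gene ends was 28.3% at folds under 3, 26.4% from 3 to 4, 25.6% from 4 to 5 and 36.4% from 8 to 9. The folds that sort these loci are those the rule used, so this is a description.

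**Figure D2:**
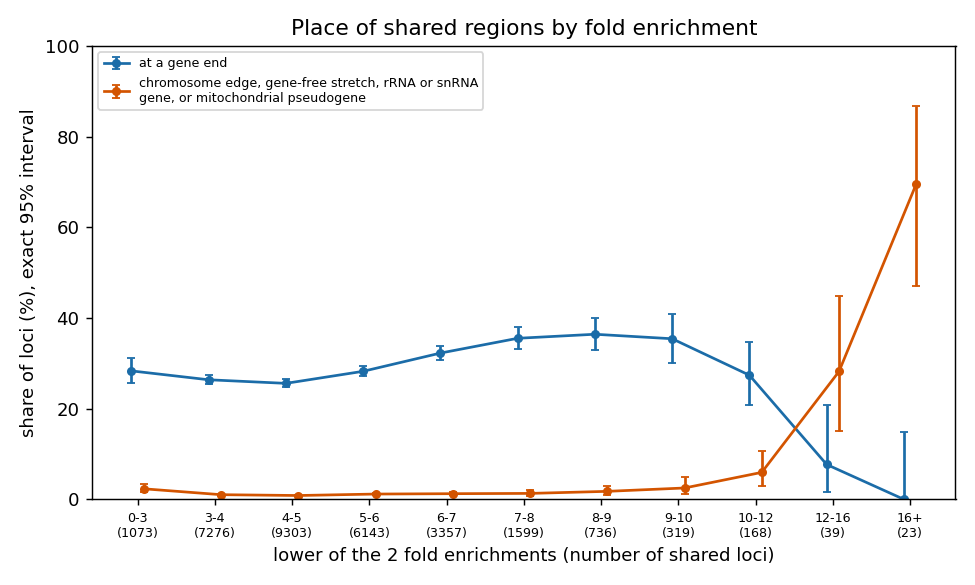
Share of shared loci (vertical, percent, exact 95% intervals) by the lower of the 2 fold enrichments (horizontal, with the number of loci), for gene ends and for the 4 rare classes together. The gene-end share is highest, at 36.4%, between folds of 8 and 9 and is 0 of 23 at 16 or more, where the rare classes reach 69.6%.

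By the lower of the 2 folds, the 2 highest loci lay at or within 1 kb of annotated mitochondrial pseudogenes, which are nuclear copies of mitochondrial genes. At chr17:22521268-22521560, which is 691 bp from the cytochrome b pseudogene MTCYBP13, the pileup was 401 tags in the library labelled lactate (fold 40.9) and 225 in the library labelled untreated (fold 36.6). At chr1:633798-634249, which lies in a run of pseudogenes of the cytochrome oxidase and ATP synthase genes (MTCO2P12, MTATP8P1, MTATP6P1 and MTCO3P12), it was 926 tags in lactate (fold 31.7) and 590 in untreated (fold 31.4). Local background there was 29.0 times the genome-wide value in lactate and 17.6 times in untreated. The log2 ratios of pileup per 1000000 tags, lactate over untreated, were 0.89 on chromosome 17 and 0.70 on chromosome 1. The mitochondrial genome itself, outside the rule, had a median pileup of 424.9 per 1000000 tags in lactate and 241.0 in untreated, with a log2 ratio of 0.82. The part of mitochondrial reads in the folds at these pseudogenes was not tested.

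Chromosome edges supplied 5 of the 12 highest loci, and the 19 edge loci lay on 14 chromosomes. Of these, 7 lay within 12 kb of the first base of the chromosome. On chromosome 7 the region from 9915 to 10240 had 76 tags at a fold of 29.6 in lactate, and that from 9915 to 10238 had 72 tags at 29.0 in untreated. On chromosome 10 from 10148 the folds were 27.1 in lactate and 24.5 in untreated, and on chromosome 5 from 11366 they were 24.5 in lactate and 22.4 in untreated. At the high edges, no gene or region is listed beyond the region that starts at 156030056 on X, with 219 tags in lactate and 186 in untreated. The same holds for the region that starts at 50807798 on chromosome 22, with 171 tags in lactate and 114 in untreated. The nearest annotated gene was a DDX11L pseudogene for 4 edge loci and an RPL23A pseudogene for 6, and both families have copies next to several telomeres. A locus at DUX4 on chromosome 4, a gene of a tandem array known from facioscapulohumeral dystrophy, had folds of 12.7 in lactate and 13.7 in untreated. A locus nearby, from 190122223, had folds of 18.1 in lactate and 15.7 in untreated.

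In the gene-free class, which takes in 1 Mb to either side of a stretch, 14 of the 19 loci lay on chromosomes 4 and 17, 7 on each. The pileup of the 19 ran from 17 to 1188 tags in lactate (median 94) and from 23 to 1343 in untreated (median 126). At chr3:93470259-93470899, which is 373107 bp from the nearest annotated gene, it was 1188 tags in lactate and 1343 in untreated, on a local background of 52.4 times the genome-wide value in lactate and 59.3 times in untreated. Its fold was 22.8 in lactate and 22.01 in untreated. The other gene-free loci among the 12 highest were chr10:41859796-41860078, with folds of 24.6 in lactate and 25.1 in untreated, and chr21:10692638-10693062, with 23.8 in lactate and 31.1 in untreated. On chromosome 4 there were 5 loci within 56616 bp of each other. All 5 lay before the gene-free stretch itself, which starts at 49589729, and were classed through its flank. Among them chr4:49149280-49149915 had 381 tags in lactate and 555 in untreated, and the locus at chr4:49147178-49147539 had 210 tags in lactate and 251 in untreated. These 3, together with the chromosome 1 pseudogenes and a site inside LDLRAD3 (chr11:36149454-36150257, 16.01 times in lactate and 14.3 times in untreated), were the 5 loci with the highest local background in each library. The tags of these peaks themselves are part of that background, and how large a part was not tested.

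The loci farthest from any gene were in the same class but were not all on a high background. The locus at chr1:125179594-125180754 lay 3608284 bp from the nearest gene, with 85 tags in lactate on a background of 8.06 times the genome-wide value and 128 in untreated on 11.1 times. At chr6:59162994-59163425, which is 1042175 bp from a gene, there were 18 tags in lactate and 23 in untreated on a background at the genome-wide value in both. At chr17:25920048-25920413 there were 17 tags in lactate and 30 in untreated, again at the genome-wide background. The other 2 of the 5, at chr17:26594688-26595223 and chr17:26603591-26604450, belonged to a cluster of 3 loci over 24844 bp, with folds between 11.9 and 16.8 over both libraries.

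Ribosomal and small nuclear RNA genes carried 5 of the loci. On chromosome 17 there were 3 beside snRNA genes that have no name of their own, within 1 cluster of 4 over 51534 bp that ends at CCDC200. The highest of them, at chr17:43246027-43246910, had 119 tags in lactate (fold 17.7) and 111 in untreated (fold 17.8). On chromosome 21 a locus 732 bp from RNA45SN2, which encodes the precursor of the large ribosomal RNAs, had 102 tags in lactate and 92 in untreated. A pair more on that chromosome arm, at 8405404 and 8419934, lay outside the 1 kb window and were classed elsewhere. RNVU1-31, a variant U1 snRNA gene, had 56 tags in lactate and 55 in untreated. No genome sequence or repeat annotation was used here, so whether any of these loci hold repeats or extra copies was not tested.

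High loci also occurred where none of these classes applied. A site inside COL23A1, a transmembrane collagen gene, at chr5:178585420-178585833, had 221 tags in lactate (fold 28.9) and 212 in untreated (fold 28.5). It ranked 4 of all loci by the lower fold, on a local background of 6.85 times the genome-wide value in lactate and 6.40 times in untreated. The median background of the other shared loci within 500 kb was 2.41 in lactate and 2.46 in untreated. The COL23A1 peak's own tags are part of its local background, and their part in this difference was not tested. Inside KIF5C, a kinesin heavy chain gene, chr2:148881631-148881942 had 194 tags in lactate (fold 32.9) and 122 in untreated (fold 25.6). Its log2 ratio per 1000000 tags was 0.72 (interval 0.39 to 1.06), and the gene table lists no mitochondrial pseudogene within 1 kb of it.

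Local background was high at many of the loci, with the highest class median at the 2 mitochondrial pseudogenes, at 19.0 times the genome-wide value in lactate and 11.4 times in untreated. In gene-free stretches the median was 5.60 times in lactate and 7.03 times in untreated. Over all the loci the median was 2.81 times in lactate and 2.49 times in untreated, against 2.48 in lactate and 2.31 in untreated at the other shared loci. It passed 3 times in either library at 252 loci (45.9%, against 39.1% of the others). A peak's own tags count in this background, and pileups were higher at the members. The part of own tags in these differences was not tested. As a measure of the wider neighbourhood, the background of the other shared loci within 500 kb was taken where there were at least 5 of them, for 465 loci. Its median was 2.44 in lactate and 2.25 in untreated, and its highest values were at PC, at 7.41 in lactate and 7.05 in untreated, at PARP2, at 7.01 in lactate and 6.56 in untreated, and at position 35927912 of chromosome 11 near LDLRAD3, at 6.58 in lactate and 6.48 in untreated. The copy number of these segments was not tested.

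**Figure D3:**
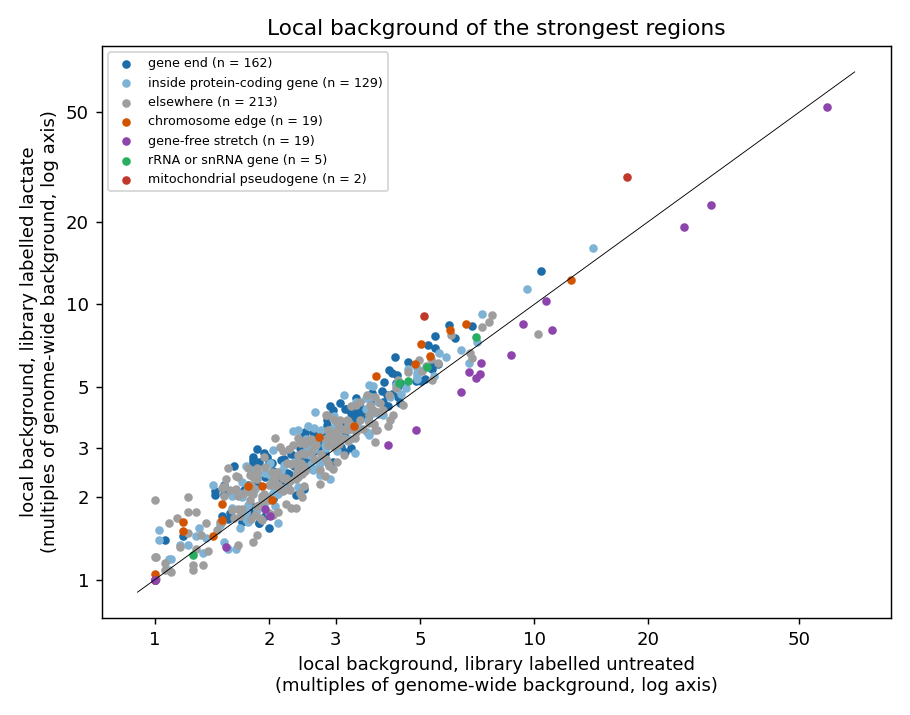
Local background of each of the 549 loci as multiples of the genome-wide background, for the library labelled lactate (vertical, log axis) and the one labelled untreated (horizontal, log axis), coloured by place, with the line of equality. Most loci lie between 1 and 5 in both, and the gene-free locus on chromosome 3 reaches 52.4 in lactate and 59.3 in untreated.

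The gene-end loci formed the largest recognisable group, and 163 of 19821 protein-coding genes had such a summit at an end (0.822%), against 37.8% with a summit of any shared locus. Among the members near a listed start, the summit lay a median of 78 bases before it, with 12.5% of 144 downstream. At the other shared loci near a start the median was 56 bases before it, with 28.7% of 6880 downstream. Starts arranged back to back within 1 kb were present at 31.2% of the 144 (interval 23.8 to 39.5), against 23.02% of the others. The promoter table used covers 15812 of 19114 protein-coding genes and none on chromosome 8, so 27 of the loci were left out of values based on starts.

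Further gene-end loci are given as examples, with no test of any theme. The examples in this and the next paragraph, other than those of the zinc finger, tRNA synthetase, proteasome and respiratory lists, were chosen after their values were seen. WARS2, the mitochondrial tryptophanyl-tRNA synthetase, had 49 tags in lactate (fold 12.02) and 46 in untreated (fold 12.6). The shared start of HSPD1 and HSPE1, which encode the mitochondrial chaperonin and its partner, had 62 tags in lactate (fold 11.9) and 45 in untreated (fold 11.2). TOMM40, the pore of the outer membrane translocase, had 103 tags in lactate and 64 in untreated. PC, pyruvate carboxylase, had 79 tags in lactate (fold 10.1) and 56 in untreated (fold 9.02), in the neighbourhood of highest background named above. FH, fumarate hydratase, had 23 tags in lactate and 32 in untreated, and PCCB, a subunit of propionyl-CoA carboxylase, had 66 in lactate and 72 in untreated.

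At POT1, which encodes a telomere-binding protein, there were 29 tags in lactate (fold 12) and 33 in untreated (fold 11.3). PARP2, a poly(ADP-ribose) polymerase, shares its upstream region with RPPH1, the RNA of ribonuclease P. The summit in lactate lay inside RPPH1, 315 bases before the PARP2 start, and that in untreated 347 bases before it. Both were outside the printed PARP2 window. The region there held 165 tags in lactate (fold 11.9) and 127 in untreated (fold 11.1), on a local background of 13.2 times the genome-wide value in lactate and 10.4 times in untreated. PCNA, the sliding clamp of replication, had 43 tags in lactate and 42 in untreated at the downstream one of its listed starts. CDC25C, a mitotic phosphatase, had 59 tags in lactate and 37 in untreated, and RIF1, a regulator of replication timing, had 39 in lactate and 33 in untreated. SRGAP2 had folds of 12.3 in lactate and 11.1 in untreated, and its human-specific copy SRGAP2C had 10.1 in lactate and 12.4 in untreated. The 2 genes are near-identical, so the tags at either are uncertain.

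By family, zinc finger genes named ZNF had 6 of 477 members marked at an end (ZNF10, ZNF484, ZNF519, ZNF543, ZNF564 and ZNF891), which is 1.26% against 0.822% of all protein-coding genes. ZNF10 and ZNF891 share 1 locus. The respiratory chain list had 3 of 105 (ATP5F1B, ATP5PO and UQCRC2). COXFA4, another gene of the chain by its COX symbol, was not counted there, though a member lay 79 bp from it. Its folds were 10.4 in lactate and 9.56 in untreated. Aminoacyl-tRNA synthetases had 2 of 37 (FARSB and WARS2) and the proteasome 1 of 50, its assembly chaperone PSMG1. Ubiquitin ligases of the RNF, TRIM and FBXO families had 3 of 198 (FBXO27, RNF13 and RNF32). None of 95 cytosolic ribosomal protein genes, 77 mitochondrial ribosomal protein genes, 74 replication-dependent histone genes or 53 RNA helicase genes had a member at an end, where exact upper limits are 3.81%, 4.68%, 4.86% and 6.72%, in that order. All 4 limits lie above the 0.822% of all protein-coding genes, so no shortage was detectable at these list sizes. A shared locus of any height lay at an end of 68.4%, 64.9%, 59.5% and 73.6% of them. None of 123 genes of the multi-copy families GOLGA, NBPF, NPIP, TBC1D3, USP17, ANKRD20, POTE and RGPD had a member at an end (upper limit 2.95%). That limit is also above 0.822%, so no shortage was detectable. A shared locus of any height lay at an end of 10.6% of them, against 37.8% of all protein-coding genes. Other families with several copies were not in this list. FAM86B1 and FAM86B2, seen afterwards, each had a member at an end. Folds were 12.4 in lactate and 10.9 in untreated at FAM86B1, and 10 in lactate and 11.8 in untreated at FAM86B2. For the listed families, outside the 1 kb window, the summits at 15:75274400 and 15:84246394 lay 1130 bp from GOLGA6C and 1351 bp from GOLGA6L4. The golgin family has many copies on chromosome 15.

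Of all 19821 protein-coding genes, 308 (1.55%) had the summit of a member inside them or within 1 kb. Among genes that make, move or use lactate or its mark the count was 0 of 22, which at that background is no result about the list, and 20 of them had some region in lactate and 19 in untreated. The highest fold among them was 9.13 at SIRT2, a deacylase, in lactate, and 7.82 at HDAC1, a deacetylase, in untreated. Of 12 genes listed for squamous epithelium, which include the general epithelial gene EPCAM, 2 held a locus, beside 1.55% of all protein-coding genes. From 2 genes nothing is called particular to the list. TP63, the master regulator of squamous cells, had 41 tags in lactate and 31 in untreated inside the gene at chr3:189834031-189834400, and EPCAM, an epithelial adhesion molecule, had 30 tags in lactate and 29 in untreated at an end of the gene. KRT14 had no region in either list. Of 15 marker genes of other cell types 0 held a locus, and 11 had some region in lactate and 10 in untreated. Of the 12 squamous genes, 11 had some region in lactate and 10 in untreated. With lists this small, whether the presence of a region follows cell type was not tested.

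Inside long genes, ASTN2, AUTS2, NAALADL2, RABGAP1L and SCHIP1 (with the readthrough gene IQCJ-SCHIP1) held 2 loci each. EGFR, the epidermal growth factor receptor, held 1 at chr7:55186002-55186577, with 92 tags in lactate and 74 in untreated on a local background of 7.32 times the genome-wide value in lactate and 7.07 times in untreated. COL17A1, a hemidesmosome collagen of basal keratinocytes, held 1 with 62 tags in lactate and 55 in untreated. ALCAM, a cell adhesion molecule, held 1 with 86 tags in lactate (fold 14.6) and 63 in untreated (fold 11.9). EGFR, COL17A1 and ALCAM were chosen after their values were seen.

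In the 247 listed promoter windows whose start lay within 1 kb of a member summit, the motifs separated into those shared with other marked promoters and those more frequent at the strongest. Matches were exact, on both strands, and neighbouring starts share bases. The GC box (GGGCGG, bound by Sp and KLF factors) was in 64.8% of them, 64.3% of the windows at other shared loci and 45.0% of all 34961 promoters. The ETS motif (CCGGAAG) was in 17.8%, 17.7% and 10.3% in that order. The NF-Y box (CCAAT) was in 46.6% (interval 40.2 to 53.0), against 37.1% at other shared loci and 34.6% of all. The CRE (TGACGTCA, bound by CREB and ATF factors) was in 18 of 247 (7.29%, interval 4.38 to 11.3), against 3.15% (interval 2.83 to 3.49) at other shared loci and 1.85% of all promoters. For these 2 motifs the interval lay above the share at other shared loci. Each motif interval takes the windows as independent, which neighbouring starts are not, so it is too narrow. A match is a description of these letters and shows no binding.

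For the rest of the motifs the interval held the share at other shared loci. The E-box (CACGTG) was in 10.9%, against 8.96% at other shared loci, and its extended form CACGTGAC, which contains it, in 4.45% against 3.54%. AP-1 (TGAGTCA) was in 5.26% against 4.55%, NRF1 in 3.24% (interval 1.41 to 6.28) against 2.24%, YY1 in 2.02% against 1.65% and ZNF143 in 0.405% against 0.464%. The TATA box (TATAAA) was in 6.88% (interval 4.06 to 10.8) against 6.39%. Over all promoters the shares were 11.5% for the TATA box, above the interval, and 1.24% for NRF1 and 7.27% for the E-box (interval 7.33 to 15.5), both below it. The median CpG observed over expected ratio was 0.795, against 0.809 at other shared loci and 0.580 over all promoters. GC content had a median of 62%, against 64% at other shared loci.

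**Figure D4:**
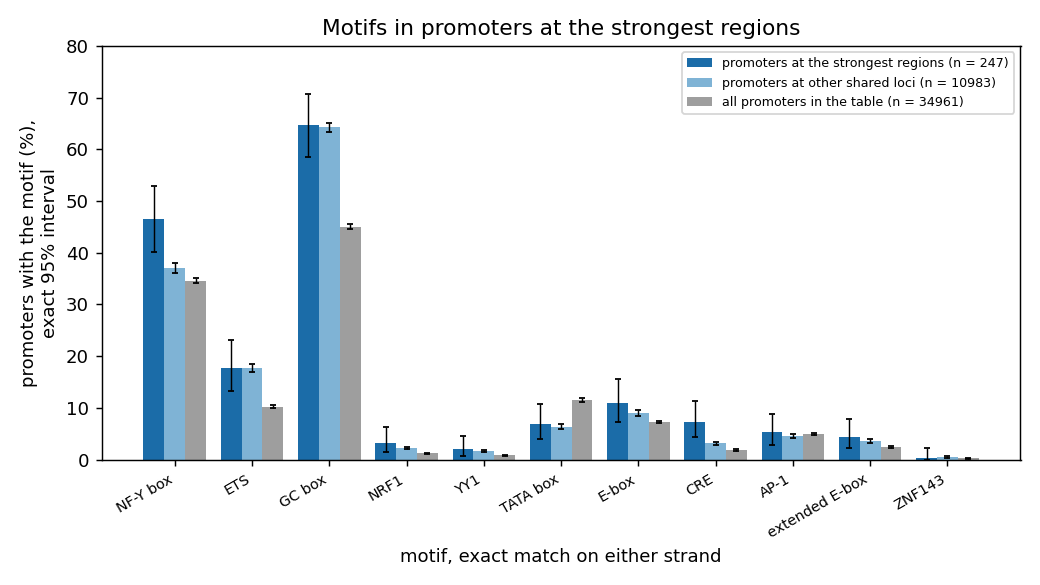
Share of promoter windows that hold each motif (vertical, percent, exact 95% intervals) for windows at the strongest loci (n = 247), at other shared loci (n = 10983) and for all promoters (n = 34961). The NF-Y box and the CRE stand above the other shared loci, at 46.6% against 37.1% and 7.29% against 3.15%, and the GC box and ETS motif do not.

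The libraries placed the loci closely alike. The summits lay a median of 18 bp apart and within 50 bp of each other at 86.2% of the loci, against 35 bp and 61.3% for the other shared loci. Region length had a median of 618 bp in lactate and 587 bp in untreated, against 400 bp in lactate and 352 bp in untreated. More than 1 summit was called in 41.2% of the regions in lactate and 39.3% in untreated, against 22.1% in lactate and 16.4% in untreated. The loci had median pileups of 40 tags in lactate and 36 in untreated, against 18 in lactate and 16 in untreated. The part of this depth in summit position, length and summit count was not tested. The longest regions in lactate were 1387 bp at ATG3 and SLC35A5, 1363 bp inside ATP9B, 1267 bp near FRG1HP on chromosome 9, 1252 bp at TMEM65 and 1249 bp at HSPA13.

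Pileup per 1000000 tags was higher in the library labelled lactate at 428 of 549 loci (78.0%), with 71.4% of all shared loci higher as the background. The median log2 ratio, lactate over untreated, was 0.20, against 0.23 at the other shared loci, and on the scale of the median of all shared loci the members' median was -0.039, so the sign depended on the scaling. A ratio of 1.5-fold or more higher in lactate was found at 39 loci (7.10%, against a background of 20.3%) and of 1.5-fold or more lower at 2 (0.364%, against 2.9%). Pileups at the members were larger, with a smaller counting error. The rule also asked for a high fold, computed from these pileups, in both lists, which in itself limits large ratios. These shares are therefore a description, and the part of each was not tested. The largest ratios were 0.92 at chr9:31137009-31137532, 0.89 at the chromosome 17 mitochondrial pseudogene, 0.88 at chr16:29469621-29470074 and 0.85 at chr12:89117409-89118058. The smallest were -0.77 at chr17:25920048-25920413, -0.71 at chr21:10692638-10693062, -0.54 at chr1:125179594-125180754 and -0.49 at chr4:49149280-49149915. All were in the gene-free class, the last through its 1 Mb flank.

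The direction of the class medians differed by place. Gene-free loci had a lower pileup per 1000000 tags in lactate at 15 of 19, with a median log2 ratio of -0.20, and chromosome edges had a higher one at 17 of 19, with a median of 0.38, where the share over all shared loci was 71.4%. On the scale of the median over all shared loci, 19 of 19 gene-free loci were lower and 13 of 19 edge loci were higher. Without scaling for depth these medians were -0.26 and 0.33, and on the scale of all shared loci -0.44 and 0.15, so both medians kept their sign under each scaling. Gene ends had a median of 0.22 and loci inside genes 0.20, which became -0.013 and -0.036 on the scale of all shared loci. The other shared loci of the same classes had medians of 0.05 in gene-free stretches (n = 205) and 0.07 at edges (n = 68). At chr21:10692638-10693062 the pileup was 94 tags in lactate and 160 in untreated (log2 ratio interval -1.10 to -0.34). At chr22:50807798-50808537 it was 171 tags in lactate and 114 in untreated (interval 0.29 to 0.99). With 1 library each, a difference between the cells and a difference between the libraries cannot be told apart.

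**Figure D5:**
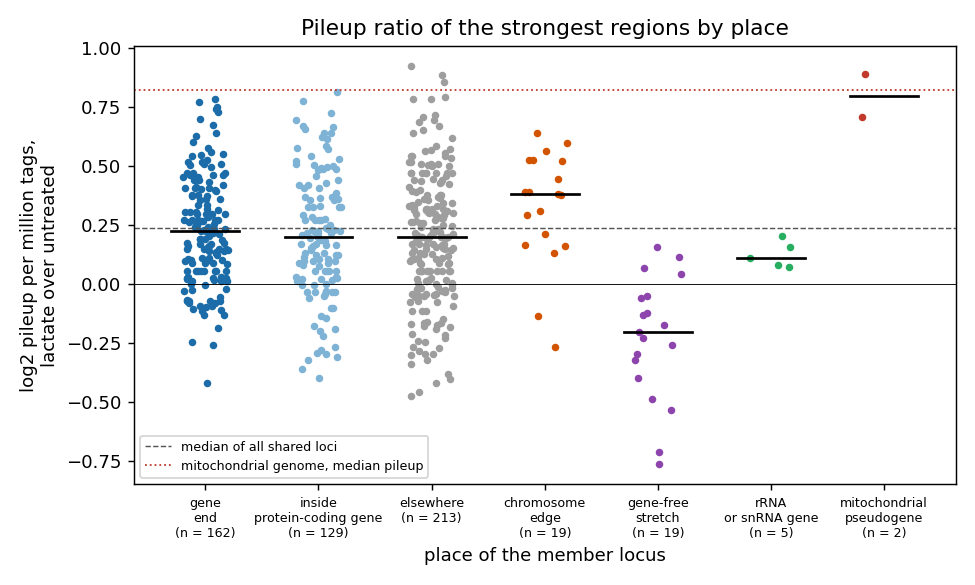
Log2 ratio of pileup per 1000000 tags, lactate over untreated (vertical), for each of the 549 loci by place (horizontal), with bars at the class medians and lines at the median of all shared loci (0.23) and of the mitochondrial genome (0.82). Gene-free stretches lie lowest (median -0.20), edges are mostly above the all-loci line (0.38), and the mitochondrial pseudogenes lie at 0.70 and 0.89.

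Of all shared loci the members were 1.83% (549 of 30036). By chromosome the share was highest on chromosome 21 (2.98%, interval 1.497 to 5.27), chromosome 4 (2.69%, interval 1.63 to 4.17), chromosome 9 (2.64%, interval 1.92 to 3.54) and chromosome 3 (2.63%, interval 1.96 to 3.44). It was lowest on X (0.431%, interval 0.0522 to 1.55) and chromosome 22 (0.786%, interval 0.256 to 1.83). The intervals of chromosomes 21 and 4 held the overall share, those of 9 and 3 lay above it and that of X below it, while the upper limit on chromosome 22 equalled it to the digits given. The chromosome 4 and 21 counts include the gene-free and rRNA loci described above.

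Around the minimum, the loci just inside were in HHAT, at TTK and on chromosome 8 at 73174380, each with a fold of 9 in lactate and with 9.55, 10.2 and 9.12 in untreated, in that order. Those just outside were on chromosome 20 at 41329378, at P2RX7 and on chromosome 2 at 176514845, with 10.8, 9.03 and 11.2 in lactate and 8.99 in untreated at all 3. A fold of 9 or more was reached by 1930 regions in lactate (3.85%) and 909 in untreated (2.09%). Of these, 1347 in lactate and 354 in untreated overlapped only regions of the other library below the minimum, and 33 in lactate and 6 in untreated overlapped none.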

How the data were processed

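CUT&Tag with a pan-lactyllysine antibody was analysed in 1 library per group. Per the submitters' processing notes, the tools were BWA, MACS2 2.1.0 and fastp 0.20.0, and the build was hg38. Per the file headers, the authors called peaks in each library separately, without a control, with a q cutoff of 0.05, shifting tags by -100 bp and extending them to 200 bp. In the deposited lists the pileup is a coverage signal in unscaled tags. The deposited fold enrichment is the ratio of pileup plus 1 to local background plus 1. No antibody-free library was used here, so Tn5 cuts at open sites and cuts directed by the antibody cannot be told apart, and multi-copy DNA is not corrected for.

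Peaks were collapsed to unique regions with the highest fold, and overlaps were checked with bedtools 2.31.1, which also gave 550 pairs, and on simulated data. Local background was recomputed as (pileup + 1) over fold, minus 1, and it includes the peak's own tags. Pileups were scaled per 1000000 tags (15120031 and 15696147 in the libraries labelled lactate and untreated). Interval ends of ratios are exact binomial limits on the 2 pileups and cover counting error only. Genes and promoters came from RefSeq tables for GRCh38.p14, without strand or exons in the gene table, and 679 genes on unlocalised sequences were left out. No test was run. The members and lists were chosen with earlier results of these data known. Named loci follow a rule: the 3 examples, the 12 highest, the 5 farthest from genes, the 5 of highest background, the 5 longest, loci within 10 kb of another, the 3 to either side of the minimum, the 4 largest and 4 smallest ratios, and those in multi-copy families or listed genes. Other genes are said to be chosen afterwards. Alternatives tried were other fold minimums, reciprocal overlap, windows, scalings and loci left out. Software was matplotlib 3.10.9, SciPy 1.17.1, numpy 2.4.6, pandas 2.3.3 and Python 3.11.15.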

Additional observations from a re-analysis of the deposited data

Results flagged for a closer look

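Outside the chromosomes that the rule covers, 14 pairs of regions with a fold of 9 or more in both lists lay on 9 unplaced or unlocalised sequences, of 160 overlapping pairs there. They are a signal in rows that no comparison above used. The mitochondrial genome held 0 such pairs.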

How the results depend on the processing

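The number of pairs was 1287 at a minimum fold of 8 and 231 at 10, against 550 at 9. A 50% reciprocal overlap gave 517 and choosing summits by pileup 549. The share of loci at a protein-coding gene end was 24.4%, and 17.4% at a fold of 10 or more. The other settings gave 22.2% to 27.5%, which included leaving out the 45 edge, gene-free, RNA-gene and pseudogene loci, an alternative chosen after seeing the data (26.6%). The median log2 pileup ratio, lactate over untreated, was 0.20, and -0.039 on the scale of the median over all shared loci, 0.14 without scaling and 0.17 at a fold of 10 or more. The first of these follows from its construction, since that median is 0.23, and the cause of the last was not tested. With promoter windows that overlap the region in place of starts within 1 kb of the summit, the GC box was in 74.9% and the TATA box in 3.59%, against 64.8% and 6.88%, and the other 9 motifs moved by less than their intervals. No paired analysis was possible because each group has 1 library and no test was run, and for the same reason no library could be left out. The low pileups (medians of 40 tags in lactate and 36 in untreated), the absence of a genome sequence and the conflict in the list headers limit every ratio given.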
